A study of Mus musculus with 8 samples.

Results

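Forkhead transcription factors share the winged helix DNA-binding domain, and in this work the family is every gene whose symbol is Fox, a letter from a to s and a digit. The arrays gave values for 38 such genes of 18193 genes in all, each read by the brightest of its probe sets, a probe set being a group of short probes that reads 1 transcript. The rule for members used the symbol and no measured value, but the family was taken up with earlier results of these data known. The 38 symbols include Foxl2os, a non-coding RNA gene beside Foxl2 and no transcription factor.

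Flow-sorted cells of mouse bone marrow gave the RNA, on 4 arrays of L-GMPs and 4 of GMPs, each group lettered A to D. L-GMPs were sorted from leukaemic mice whose genotype label is HoxA9+Meis1 AML, an acute myeloid leukaemia labelled by a homeobox gene and its homeobox partner, and GMPs from mouse marrow labelled Normal. GMP stands by convention for granulocyte-macrophage progenitor. The labels used here give no strain, age, time or treatment and do not say how the leukaemia was made. Separate animals per array are not stated either, and p-values therefore reflect the spread among these samples alone, which may be technical. Values are log2 of deposited intensities that the submitters' notes credit to RMA, a method that corrects background and scales arrays to each other.

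The genes of the genotype label did not read alike. In the fit of all probe sets Hoxa9 rose by 4.82 in its brighter probe set (10.87 to 12.29 in L-GMPs, 6.74 to 6.84 in GMPs) and fell by 6.66 in the other (2.54 to 2.91 against 9.19 to 9.79). Meis1 fell in all 3 probe sets, by 1.47 to 3.05, and its brightest read 3.59 to 4.68 in L-GMPs and 6.89 to 7.27 in GMPs (adjusted p = 4.88e-06 by limma). The Meis1 probe sets, and the dimmer of Hoxa9, thus read against the label. No file used here says which part of a transcript they read or how the leukaemia's genes were supplied, so the values do not settle the label, and L-GMP and GMP mean the libraries so labelled throughout. GMP D stood apart in the 3' probe set of Gapdh minus its 5' probe set, a sign of RNA quality, at 2.74. The other GMPs lay at 1.46 to 1.76 and the L-GMPs at 1.24 to 1.55, and the part of this difference in the results was not tested.

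The family's members differ in how they are switched on. FOXO factors are held out of the nucleus when AKT phosphorylates them downstream of growth factor receptors, and they drive stress resistance, quiescence and cell death genes. In haematopoietic stem cells they guard quiescence, and in myeloid leukaemia they have been linked to the block in differentiation. FOXM1 drives genes of G2 and mitosis in dividing cells. FOXP factors repress transcription as dimers, and FOXK factors are repressors with roles in autophagy and metabolism. Many other members act in embryonic tissues, gut, kidney, gonad or nervous system.

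Forkhead factors bind variants of an element whose core is GTAAACA, and genes listed as FOXO targets were searched for it. GTAAACA or its reverse complement TGTTTAC was searched in RefSeq windows of 250 bases before to 50 bases after each start (GRCm38.p6). It was found in 7 of 48 listed FOXO targets that had a window (14.6%), against 1095 of 27025 genes (4.05%), and in 1 of 25 Forkhead genes, Foxa1. The shares of the other lists used here were 9.38% of partners, 7.69% of FOXO regulators and 5.56% of FOXM1 targets. A match is a description of letters and not a binding site. The targets were listed by their reported roles, so their higher share is no test of the element. The 7 matches are shown on the gene's strand with 10 bases on each side and the element in capitals, because their genes did not move in a single direction.

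Bbc3: ctggcgggttTGTTTACaaacaatggg
Mxi1: gcgcggagaaGTAAACAaaccgcgcgc
Sesn1: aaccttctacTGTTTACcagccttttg
Bcl2l11: agacactaggGTAAACAcgccggggtg
Txnip: tggaggcctgGTAAACAagggccaagt
Myb: tgatggcatcTGTTTACagagttacac
Trim63: agtctgttctTGTTTACgacccccacg

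Bbc3, which encodes the death protein PUMA, holds its match at chr7:16310084-16310110 (plus strand, these coordinates and those that follow taking in the flanks), 167 bases before a RefSeq start. Mxi1, a MYC antagonist, holds it at chr19:53329454-53329480 (plus strand), and Sesn1, a stress-induced sestrin, at chr10:41810586-41810612 (plus strand), beyond the start by 23 bases. Bbc3 and Mxi1 were higher in L-GMPs, Sesn1 was lower, and the other 4 did not pass the test. Their values stand with the FOXO targets further on.

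No Forkhead gene was called different between L-GMPs and GMPs. Limma, a linear model that shares variance between genes, called 0 of 38 at an adjusted p under 0.05, where it called 12.1% of all genes, 4.78% higher and 7.27% lower. After centring each array on its median the shares were 11.9% and 5.07%, and after quantile normalization 6.88% and 7.03%. At an unadjusted p under 0.05 there were 4 of 38 members, against 26.2% of all genes, with Foxo4 and Foxa2 lower and Foxm1 and Foxq1 higher in L-GMPs. The smallest adjusted p was 0.067, for Foxo4. Its 4 L-GMP arrays lay below all 4 GMP arrays, which made it the 1 member whose groups did not overlap, against 18.2% of all genes in either direction and 9.71% lower. In log2 units and with GMP subtracted from L-GMP, the differences ran from -0.46 to 0.37 with a median of 0, and their median absolute size was 0.12 against 0.17 over all genes. All 38 intervals of 95% lay within a 2-fold difference either way, as did those of 90.4% of all genes, and 30 of the 38 lay within 1.5-fold.

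**Figure D1:**
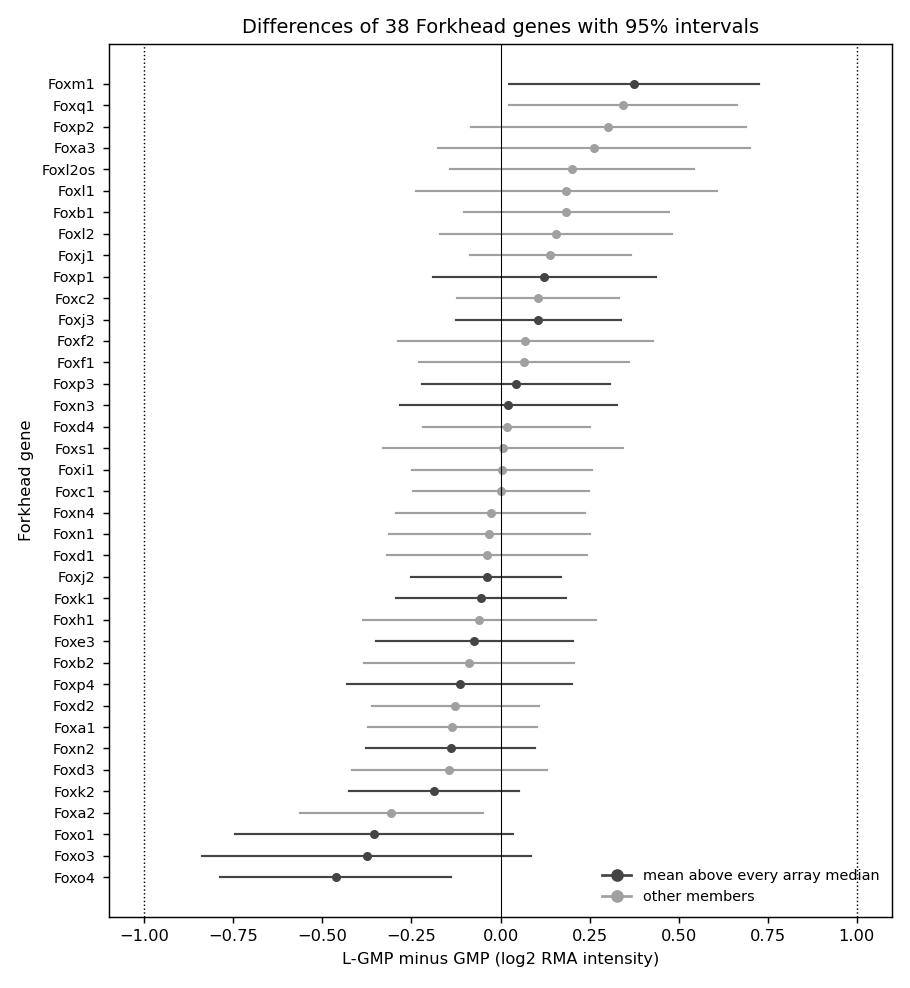
Difference in mean log2 RMA intensity, L-GMP minus GMP, of the 38 Forkhead genes (points) with 95% intervals of the limma fit (lines); dark members have a mean above the median of every array, and dotted lines mark a 2-fold difference. Every interval lies between the dotted lines, and the 3 FoxO genes have the lowest differences, from -0.46 to -0.35.

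The members differed widely in probe brightness. No detection call came with the values, so a member's mean over all 8 arrays was placed against the quartiles of each array. The mean was above the upper quartile of every array (7.39 to 7.46) in 8 members and between the median (5.24 to 5.49) and that quartile in 6. In 13 it lay between the lower quartile (3.65 to 3.75) and the median, and in 11 it was below the lower quartile. Probe sets differ in how well they bind, so brightness does not rank the genes. Among genes with a mean above every array median limma called 16.3%, and among the 14 members of that kind 0, with 2 at an unadjusted p under 0.05 (33.4% of such genes).

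**Figure D2:**
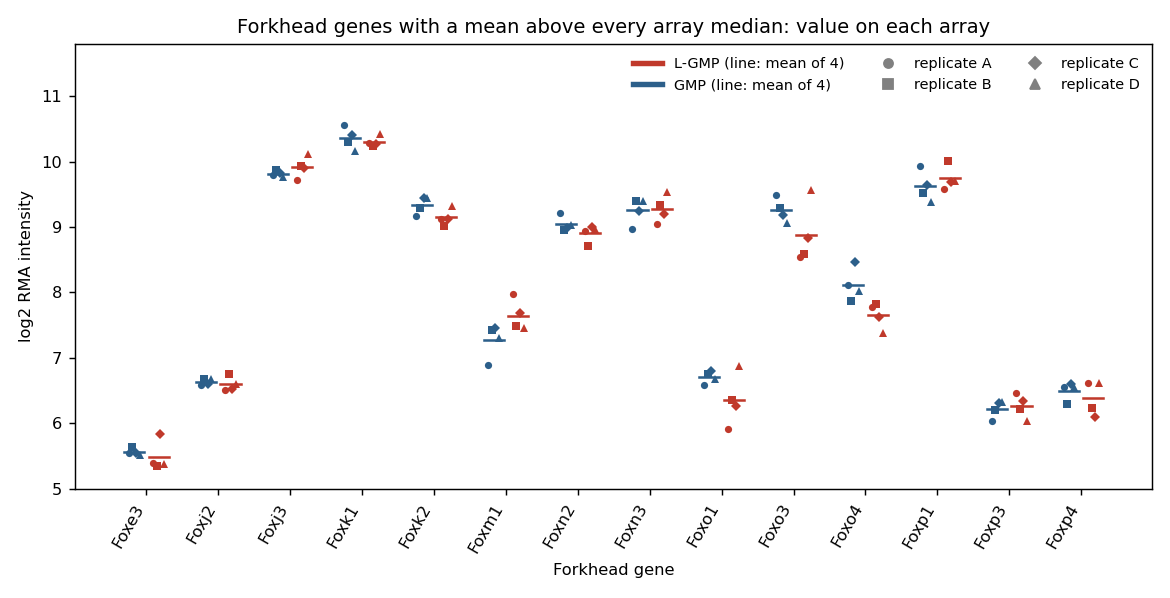
Log2 RMA intensity on each of the 8 arrays (symbols give the replicate letter, lines the group means) of the 14 Forkhead genes with a mean above every array median. The groups overlap for all of these genes except Foxo4, and Foxo1 and Foxo3 spread more widely among L-GMPs, with replicate D highest.

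The FoxO genes had the lowest differences of the family, below 0 under all 3 scalings. Foxo4, on the X chromosome, read 7.78, 7.83, 7.63 and 7.38 on L-GMP arrays A to D and 8.12, 7.87, 8.46 and 8.02 on the GMP arrays. The groups touched closely, with 7.83 in L-GMP B and 7.87 in GMP B. The difference was -0.46 (SE 0.15, 95% interval -0.79 to -0.14, adjusted p = 0.067 by limma). Its second probe set was dim, from 3.27 to 3.84 over all arrays, and had a difference of -0.17 (adjusted p = 0.468 in the fit of all probe sets). Foxo4 passed after quantile normalization, with -0.49 (adjusted p = 0.0474, where 13.9% of all genes were called).

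Foxo3, the FOXO factor most studied in stem cell quiescence, depended on a single array. It read 8.54, 8.59, 8.84 and 9.56 on L-GMP arrays A to D, and 9.49, 9.29, 9.19 and 9.06 on the GMP arrays. L-GMP A, B and C were below every GMP array, and L-GMP D was above them all. The difference was -0.38 (SE 0.21, 95% interval -0.84 to 0.09, adjusted p = 0.287). Without L-GMP D it was -0.60 (adjusted p = 0.02, where 10.9% of all genes were called, 6.56% lower). In the other probe sets L-GMP D was again highest of the L-GMPs: it read 9.36 and 9.34, against 8.44 to 8.90 and 8.46 to 8.78 in the rest. Their differences were -0.44 and -0.22 (adjusted p = 0.158 and 0.501 in the fit of all probe sets).

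Foxo1, a FOXO factor required in lymphoid development, had the same array at its top. Its brightest probe set read 5.91, 6.35, 6.27 and 6.87 in L-GMPs and 6.59, 6.76, 6.80 and 6.67 in GMPs. L-GMP A, B and C were again below every GMP array, and replicate D was above them. The difference was -0.35 (SE 0.18, 95% interval -0.74 to 0.04, adjusted p = 0.235), and -0.53 without L-GMP D (adjusted p = 0.0319). The dimmest of its 4 probe sets gave tight groups without that exception. It read 5.01, 4.89, 5.01 and 5.05 in L-GMPs and 5.32, 5.30, 5.40 and 5.36 in GMPs, with no overlap. This probe set fell by 0.35 (SE 0.09, adjusted p = 0.0318 in the fit of all probe sets, where 12.2% were called). Leaving out any single array other than L-GMP D or GMP A lost that call (adjusted p 0.0658 to 0.0804), as did both other scalings (-0.21 and -0.23). The remaining Foxo1 probe sets had differences of -0.26 and 0.05. What sets L-GMP D apart was not tested. Its Gapdh value, 1.55, was within the range of all arrays.

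**Figure D3:**
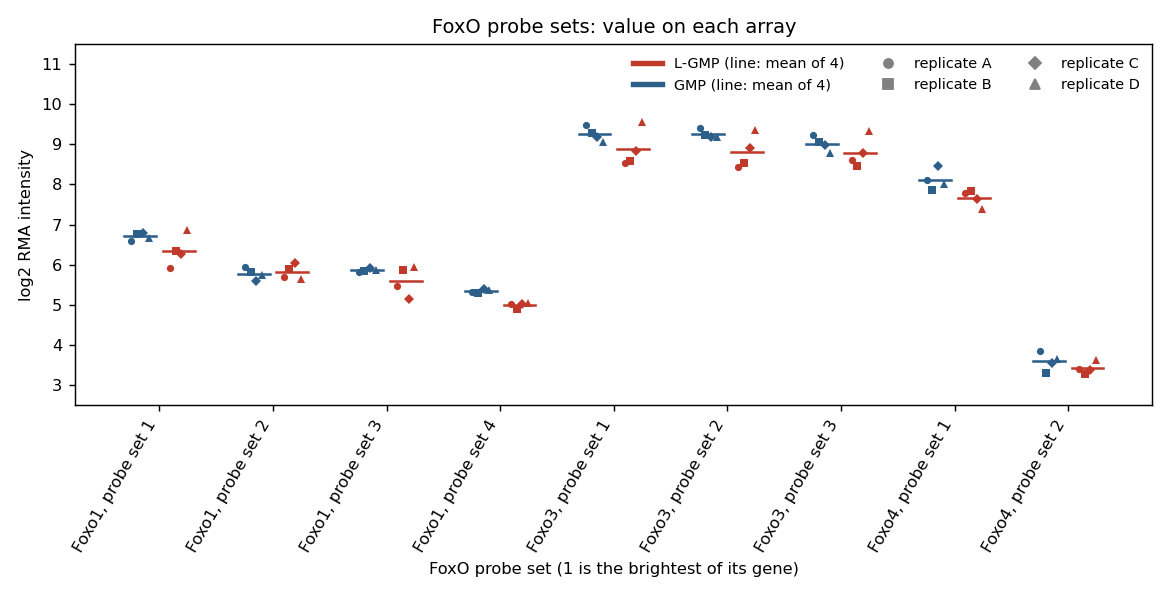
Log2 RMA intensity on each array for all 9 probe sets of Foxo1, Foxo3 and Foxo4, numbered from the brightest of each gene (symbols give the replicate letter, lines the group means). L-GMP D is the highest L-GMP array in all 3 Foxo3 probe sets, in 3 of 4 of Foxo1 and in the dimmer of Foxo4, and the lowest in the other Foxo1 probe set and the brighter of Foxo4.

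The upstream sequences of Foxo1 and Foxo3, the 2 members that passed without L-GMP D, are given because FOXO factors are known to act on FOXO genes. Neither holds GTAAACA or TGTTTAC in its window, which says only that these letters are not there. They are the 250 bases before the RefSeq start on the gene's strand, at chr3:52268087-52268336 (plus strand) and chr10:42276696-42276945 (minus strand) of GRCm38.p6, with no part marked in capitals.

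Foxo1: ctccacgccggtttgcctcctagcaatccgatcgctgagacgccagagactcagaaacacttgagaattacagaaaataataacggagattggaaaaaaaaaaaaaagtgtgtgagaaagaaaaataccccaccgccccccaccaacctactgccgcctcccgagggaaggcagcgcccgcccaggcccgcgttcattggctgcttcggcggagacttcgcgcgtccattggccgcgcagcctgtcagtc
Foxo3: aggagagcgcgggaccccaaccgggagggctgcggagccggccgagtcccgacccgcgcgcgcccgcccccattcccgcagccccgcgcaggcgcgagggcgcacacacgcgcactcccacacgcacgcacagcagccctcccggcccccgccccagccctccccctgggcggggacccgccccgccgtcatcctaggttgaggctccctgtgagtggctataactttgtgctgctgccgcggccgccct

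The Foxo1 stretch is 56% G and C with 20 CpG pairs and the Foxo3 stretch 76.4% with 31, against medians of 52.4% and 6 over the same 250 bases of 32851 RefSeq starts.

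Foxm1, the mitotic activator, leaned the other way without passing. Its brightest probe set read 7.97, 7.49, 7.68 and 7.45 in L-GMPs and 6.89, 7.43, 7.46 and 7.31 in GMPs. L-GMP D lay just below GMP C, so the groups overlapped. The difference was 0.37 (SE 0.16, 95% interval 0.02 to 0.73, adjusted p = 0.162). All 4 Foxm1 probe sets had differences above 0, from 0.09 to 0.49. In the one with 0.49 every L-GMP array was above every GMP array (7.23 to 7.69 against 6.82 to 7.21, adjusted p = 0.0504 in the fit of all probe sets). After centring each array on its median, which moved the median difference of all genes from 0.01 to 0.15, the brightest probe set had 0.52 and passed (adjusted p = 0.0391, where 17% of all genes were called). The probe set with 0.49 passed then too (adjusted p = 0.0151 in the fit of all probe sets) and after quantile normalization (0.0391). It also passed without the dimmest 25% or 50% (0.0449 and 0.0398) and without L-GMP B or D (0.0373 and 0.0386). With the trended prior, the replicate block or any other single array left out it did not pass.

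The FoxP genes, repressors with roles in lymphocytes and monocytes, did not pass in their brightest probe sets. Foxp1 read 9.58 to 10.01 in L-GMPs and 9.39 to 9.94 in GMPs, a difference of 0.12 (SE 0.14, adjusted p = 0.632). Of its 8 probe sets 7 had differences above 0, from 0.01 to 0.50. The one with 0.50 did not overlap between groups (8.49 to 9.18 in L-GMPs, 8.23 to 8.46 in GMPs, adjusted p = 0.0508 in the fit of all probe sets). Foxp1 is known for many splice forms, and the files do not say which form each probe set reads. Foxp4 had -0.11 in its brightest probe set (adjusted p = 0.667). Its dimmest read 5.28, 5.40, 5.29 and 5.14 in L-GMPs and 4.91, 5.03, 4.74 and 4.76 in GMPs. That probe set rose by 0.41 (SE 0.11, adjusted p = 0.0329 in the fit of all probe sets), and the groups did not overlap. The call was lost without L-GMP A, B or C or GMP C or D (adjusted p 0.0717 to 0.0926).

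Foxp3, the master regulator of regulatory T cells, read 6.03 to 6.46 in L-GMPs and 6.04 to 6.32 in GMPs, a difference of 0.04 (adjusted p = 0.86). The T cell genes Cd3e and Cd3g read 3.74 to 4.27 in L-GMPs and 3.45 to 4.38 in GMPs. Others of the list were brighter or uneven: Cd247 read 8.28 to 8.77 in L-GMPs and 8.47 to 8.94 in GMPs. Cd28 read 4.26 to 7.94 in L-GMPs and 4.04 to 5.10 in GMPs, a difference of 1.42 (adjusted p = 0.168 by limma). Summed intensity over 11 T cell markers was 595 to 756 in L-GMPs and 600 to 702 in GMPs. Of these markers 1 was called higher (Cd8b1) and 0 lower, where 4.78% and 7.27% of all genes were. The part of T cells in the Foxp3 signal was not tested. Foxp2, best known from the nervous system, had 0.30 (adjusted p = 0.307), and its 6 probe sets ran from -0.15 to 0.30.

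The FoxK, FoxJ and FoxN genes had small differences in their brightest probe sets. Foxk1, a repressor of autophagy genes, read 10.24 to 10.42 in L-GMPs and 10.17 to 10.56 in GMPs, with a difference of -0.05 (95% interval -0.29 to 0.19, adjusted p = 0.802). Its relative Foxk2, which like it binds the deubiquitinase BAP1, had -0.19 (-0.43 to 0.05, adjusted p = 0.305). Foxj3 had 0.11, and Foxj2 had -0.04, with 6.51 to 6.75 over all arrays. Foxj1, the switch for motile cilia, was dim, at 3.27 to 3.63. Foxn3, a checkpoint repressor, had 0.02 (95% interval -0.28 to 0.33), and Foxn2 had -0.14 (-0.38 to 0.10). The thymic factor Foxn1 and the retinal factor Foxn4 had -0.03 each. The other probe sets of Foxk1 had 0.23 and 0.29 (adjusted p = 0.279 and 0.166 in the fit of all probe sets). Those of Foxk2 had both signs, from -0.17 to 0.43, the highest in its dimmest probe set (adjusted p = 0.156).

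The remaining members mostly act outside blood, and all of them except Foxe3, a lens factor at 5.35 to 5.84, had a mean that was not above every array median. Foxc1, a factor of marrow stroma that is switched on in a share of human acute myeloid leukaemias, read 2.98 to 3.19 in L-GMPs and 2.85 to 3.26 in GMPs. Its difference was 0 (95% interval -0.25 to 0.25), and its second probe set read 2.82 to 3.25 over all arrays. The 11 measured markers of stroma and osteoblasts, Foxc1 among them, summed to 351 to 501 in L-GMPs and 339 to 476 in GMPs. Of them 0 were called, where 12.1% of all genes were. Foxc2 lay at 2.27 to 2.58.

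The FoxA genes, pioneer factors of liver and gut, gave -0.13, -0.31 and 0.26 for Foxa1, Foxa2 and Foxa3. Foxa2 read 3.48 to 3.88 in L-GMPs and 3.84 to 4.11 in GMPs (SE 0.12, adjusted p = 0.122). Foxa3 rested on L-GMP B, at 4.40, where the other 7 arrays read 3.37 to 3.81. Foxq1, an epithelial factor, read 4.40 to 5.06 in L-GMPs and 4.15 to 4.44 in GMPs, a difference of 0.34 (SE 0.15, adjusted p = 0.16). It passed after median centring (0.49, adjusted p = 0.049), and its other probe set had -0.09. Foxf1, a factor of lung and gut mesenchyme, disagreed in size between probe sets. The brighter gave 0.07 (adjusted p = 0.802), and the dimmer gave 0.58 without overlap (3.34 to 4.25 in L-GMPs, 2.91 to 3.24 in GMPs, adjusted p = 0.065 in the fit of all probe sets).

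Foxl2, the ovarian factor, and its neighbour Foxl2os had 0.16 and 0.20, both dim. The strand of the labelled target is unsettled in the sources used here, so their signals cannot be told apart. The forkhead genes of the b, d, f, h, i, l and s groups not described above are Foxb1, Foxb2, Foxd1, Foxd2, Foxd3, Foxd4, Foxf2, Foxh1, Foxi1, Foxl1 and Foxs1. Their brightest probe sets had differences of -0.14 to 0.19, with adjusted p of 0.409 to 0.988. Another Foxh1 probe set had 0.42 (adjusted p = 0.0966 in the fit of all probe sets), and the last had 0.06. The one with 0.42 passed after median centring (adjusted p = 0.022), after quantile normalization (0.0416) and without GMP B (0.0447).

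Probe sets of a gene often pointed in different directions. Several probe sets read 21 members, and in 14 of these the differences had both signs. Over 83 Forkhead probe sets 1 was called higher and 1 lower, against 4.24% and 7.94% of all single-symbol probe sets. Groups did not overlap in 6 of the 83 (18.1% of all), 4 higher (7.62%) and 2 lower (10.5%) in L-GMPs. The largest absolute difference was 0.58.

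**Figure D4:**
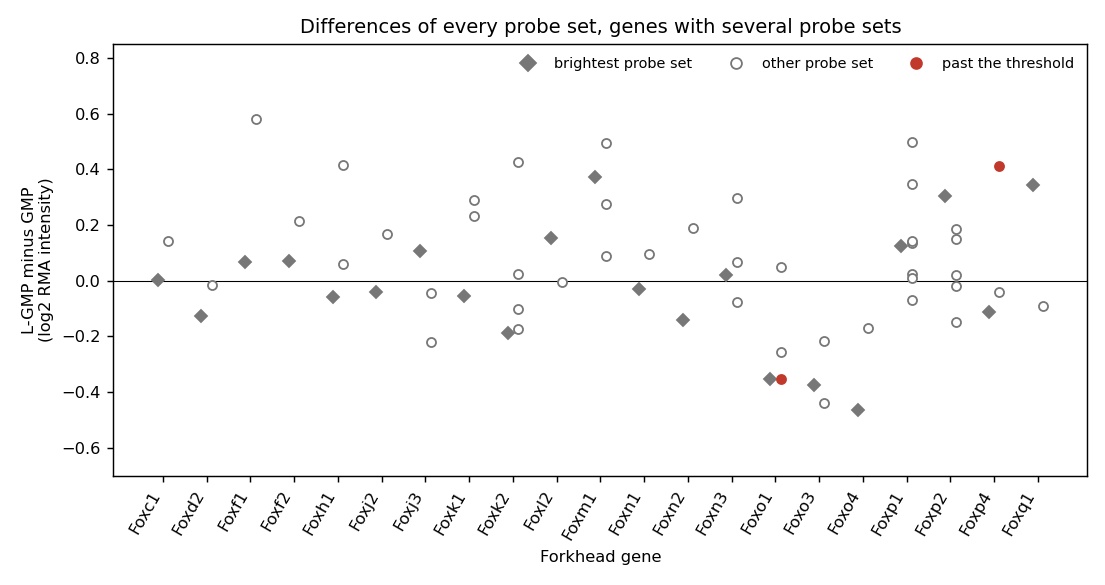
Difference in log2 RMA intensity, L-GMP minus GMP, of each probe set of the 21 Forkhead genes read by several; diamonds are the brightest probe set of a gene, circles the others, and red marks those past an adjusted p of 0.05. The 2 red points are the dimmest probe sets of Foxo1 (-0.35) and Foxp4 (0.41), and 14 genes have points on both sides of 0.

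Genes that act on or beside the family, chosen by their reported roles, were read the same way. Of 44 measured FOXO regulators (kinases, phosphatases, 14-3-3 proteins and modifiers of FOXO), 0 were called higher and 5 lower, where 4.78% and 7.27% of all genes were. Their median difference was 0, against 0.01 over all genes, and after median centring 3 were higher and 2 lower, where 11.9% and 5.07% of all genes were. Phlpp1, a phosphatase that removes an activating phosphate from AKT, read 4.35 to 4.93 in L-GMPs and 5.99 to 6.49 in GMPs and fell by 1.49 (SE 0.15, adjusted p = 0.000104). Setd7, a lysine methyltransferase, fell by 0.65 (SE 0.13, adjusted p = 0.0102). Skp2, the ubiquitin ligase subunit that targets FOXO1, fell by 0.57, and Xpo1, the nuclear export receptor, by 0.40. The fifth, the 14-3-3 gene Ywhag, fell by 0.36. It belongs to the list, and only its naming here was decided after its values were seen. Skp2 lost its call without L-GMP C or D or GMP B or C (adjusted p 0.0539 to 0.0625). Xpo1 lost it without L-GMP C or GMP B, C or D (0.0519 to 0.0613), and Ywhag without any single array except L-GMP D and GMP A (0.0528 to 0.0702). Median centring also ended the calls of Skp2 (-0.42, adjusted p = 0.0627), Xpo1 (-0.26, 0.0841) and Ywhag (-0.22, 0.129). The mean of probe sets ended those of Xpo1 (-0.23, adjusted p = 0.255) and Ywhag (-0.27, 0.0579). The list held 2 calls without GMP B, GMP C or L-GMP C. Akt1 (0.36) and Sgk1 (0.67), kinases that phosphorylate FOXO factors, did not pass (adjusted p = 0.251 and 0.0775).

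Reported FOXO targets changed in both directions. Of 63 measured, 8 were called higher and 6 lower, where 4.78% and 7.27% of all genes were, with a median difference of 0.07 and a median absolute difference of 0.28, against 0.17 over all genes. After median centring 13 were higher and 4 lower, where 11.9% and 5.07% of all genes were. Pmaip1, which encodes the death protein NOXA, read 9.04, 8.76, 9.44 and 9.89 in L-GMPs and 5.90, 6.18, 5.52 and 7.25 in GMPs. It rose by 3.07 (SE 0.35, 8.40-fold, adjusted p = 0.000241). Klf2, a factor of lymphocyte quiescence and migration, rose by 2.97 (SE 0.42, 7.81-fold, adjusted p = 0.00115). Its GMP arrays spread from 6.20 to 8.19, all below the L-GMP arrays at 9.61 to 10.85. Ccnd1, cyclin D1, which FOXO factors repress, rose by 1.60 (SE 0.24), and Erbb3, a receptor of the EGF receptor family, by 1.53 (SE 0.25, adjusted p = 0.00302), or 0.89 in the mean of its probe sets. Among the 8 called higher, L-GMP D was the highest array for Pmaip1, Klf2, Erbb3 and Mxi1, and not for Ccnd1, Pik3ip1, Cdkn2d or Bbc3.

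Among the falls, Rag2, a recombinase gene, fell by 1.43 (SE 0.19, adjusted p = 0.000663) and Tnfsf10, the death ligand TRAIL, by 1.09 (SE 0.23, adjusted p = 0.0109). Igf1r, a growth factor receptor upstream of AKT, fell by 1.99 (SE 0.55, adjusted p = 0.0398) and was uneven in L-GMPs (5.78 to 9.09, against 9.62 to 9.99 in GMPs). Its call was lost without any single array except L-GMP B and D (adjusted p 0.0545 to 0.101), and with the trended prior (0.114). Bcl6, a repressor of lymphocytes and myeloid cells, fell by 0.82 (SE 0.21), a call lost without L-GMP C or GMP B, C or D (0.0524 to 0.0832). Without GMP C the list held 9 calls. Ccnd2, cyclin D2, was the most uneven target. It read 6.04, 10.23, 8.93 and 6.99 in L-GMPs and 10.17 to 10.77 in GMPs, and its difference of -2.37 did not pass.

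The targets with a GTAAACA match, listed members named here after their values were seen, divided as follows. Mxi1 read 9.92, 9.61, 9.65 and 10.26 in L-GMPs and 8.96, 8.98, 8.76 and 9.13 in GMPs, and rose by 0.91 (SE 0.15, adjusted p = 0.0033). Bbc3 rose by 0.43 (SE 0.10, adjusted p = 0.0185), a call lost without L-GMP A or C or GMP C (0.0528 to 0.0553). Sesn1 read 7.61, 7.84, 8.27 and 8.53 in L-GMPs and 8.67 to 8.81 in GMPs, and fell by 0.70 (SE 0.18, adjusted p = 0.0284). Its call was lost without any single array except L-GMP C and D (0.0525 to 0.0768), and after median centring (-0.56, 0.055). Txnip, an inhibitor of thioredoxin, had 0.34 without overlap (adjusted p = 0.106), and Bcl2l11, the death protein BIM, had 0.28 (adjusted p = 0.292). Myb had -0.20 and the muscle gene Trim63 0.03.

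Cell type markers moved between the groups beside these targets. Over all genes 4.78% were called higher and 7.27% lower, and no marker count below was tested against those shares. Of 14 measured GMP markers 0 were called higher and 5 lower, and their summed intensity was 30968 to 36525 in L-GMPs and 44222 to 48491 in GMPs. Mpo was among the 5, at 13.12 to 13.35 in L-GMPs and 13.58 to 13.67 in GMPs. It fell by 0.39 (adjusted p = 0.0195 by limma) and stayed bright on every array. Of 11 monocyte and macrophage markers 6 were called higher and 1 lower, with sums of 10910 to 14858 in L-GMPs and 5342 to 6057 in GMPs. Of 11 eosinophil, basophil and mast cell markers 8 were called lower and 0 higher (661 to 1551 against 4495 to 11062). Of 10 stem and multipotent progenitor markers 1 was called higher (Flt3) and 6 lower (1038 to 2227 against 702 to 761). The higher sum came from Flt3, which read 9.67 to 11.01 in L-GMPs and 6.56 to 7.32 in GMPs, while the list's median difference was -0.77. The 6 include Meis1, of the genotype label, and Tek, which the endothelial list also holds. Megakaryocyte markers had 3 of 7 lower (182 to 251 against 461 to 1966), erythroid 3 of 9 (1047 to 1337 against 1866 to 2251), NK cell 2 of 7 (451 to 586 against 2070 to 2524) and mature neutrophil 2 of 9 (378 to 1627 against 899 to 4326), with 0 higher in each. Endothelial markers had 1 higher and 4 lower of 8, and dendritic cell markers 1 higher (again Flt3) and 0 lower of 8. The B cell and regulatory T cell lists had 0 called. Their part in the results was not tested. In sorted cells, fewer cells of a type and less RNA per cell cannot be told apart.

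Reported FOXM1 targets are mostly genes of mitosis. Of 46 measured, 2 were called higher and 3 lower, where 4.78% and 7.27% of all genes were. Their median difference was -0.13 with 32 of 46 below 0, against 8713 of 18193 genes. Centring moved the median of all genes from 0.01 to 0.15, a shift as large as that median, and left 3 higher and 1 lower (11.9% and 5.07% of all genes). Mki67 (0.02), Aurkb (0.03), Birc5 (0.07) and Plk1 (-0.31), markers and drivers of mitosis, did not pass. Ccne2, cyclin E2, fell by 1.02 (SE 0.14, adjusted p = 0.00106), and so did Skp2, which both lists hold. Cdc25a, a phosphatase that activates cyclin-dependent kinases, fell by 0.50 (SE 0.12, adjusted p = 0.023), a call lost without L-GMP A or D or GMP B or D (0.0551 to 0.0702), after median centring (-0.36, 0.0773) and with the mean of its probe sets (-0.30, 0.0813). Ccnd1 rose as given above, and Cenpf, a kinetochore protein, rose by 0.53 (SE 0.13, adjusted p = 0.0271). Cenpf lost its call without L-GMP C or D or GMP D (0.0574 to 0.0667), and the mean of its probe sets gave 0.13. Without L-GMP D the list held 2 calls, and 3 without L-GMP C or GMP B or D.

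Promoters of mitotic genes often carry the cell cycle homology region, through which FOXM1 is recruited with other factors. Its letters TTTGAA or the reverse complement TTCAAA stood in 21 of 36 listed FOXM1 targets with a window (58.3%), against 20.2% of 27025 genes and 3 of 25 Forkhead genes. These targets too were listed by their reported roles, so the higher share is no test of the region. The motif shares no full match with GTAAACA. The matches of its called targets are shown on the gene's strand, the element in capitals, because these genes moved in opposite directions.

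Cenpf: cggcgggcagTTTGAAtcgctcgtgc
Skp2: tgtgctgaTTTGAAtaTTTGAAgtcataaa

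They lie at chr1:189688069-189688094 and chr15:9155467-9155496, both on the minus strand, the Cenpf match just beyond the start and the first of 2 Skp2 matches 63 bases before it.

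Forkhead partners and cofactors had 4 called higher and 2 lower of 37 measured, where 4.78% and 7.27% of all genes were, with a median difference of 0.02. After median centring 8 were higher and 2 lower, where 11.9% and 5.07% of all genes were. Mcm3ap, which encodes a protein of messenger RNA export, rose by 1.13 (SE 0.17, adjusted p = 0.00146). Cebpb, a myeloid factor, Sin3b, a corepressor that FOXK factors bind, and Sap30, of the same complex, rose by 0.52, 0.51 and 0.49. Tle1, a Groucho corepressor, fell by 1.52 (SE 0.34, adjusted p = 0.0157), and Smad3, a transducer of TGF-beta signals, by 0.95 (SE 0.11, adjusted p = 0.000347). Tle1 lost its call without GMP D (adjusted p = 0.0553). Sin3b lost it without L-GMP C or GMP B, C or D (0.0508 to 0.0565) and with the mean of its probe sets (0.24, adjusted p = 0.0871), and Cebpb without L-GMP A or C or GMP A, B or C (0.0691 to 0.0951). Cebpa, the GMP factor, had 0.14 (adjusted p = 0.622).

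**Figure D5:**
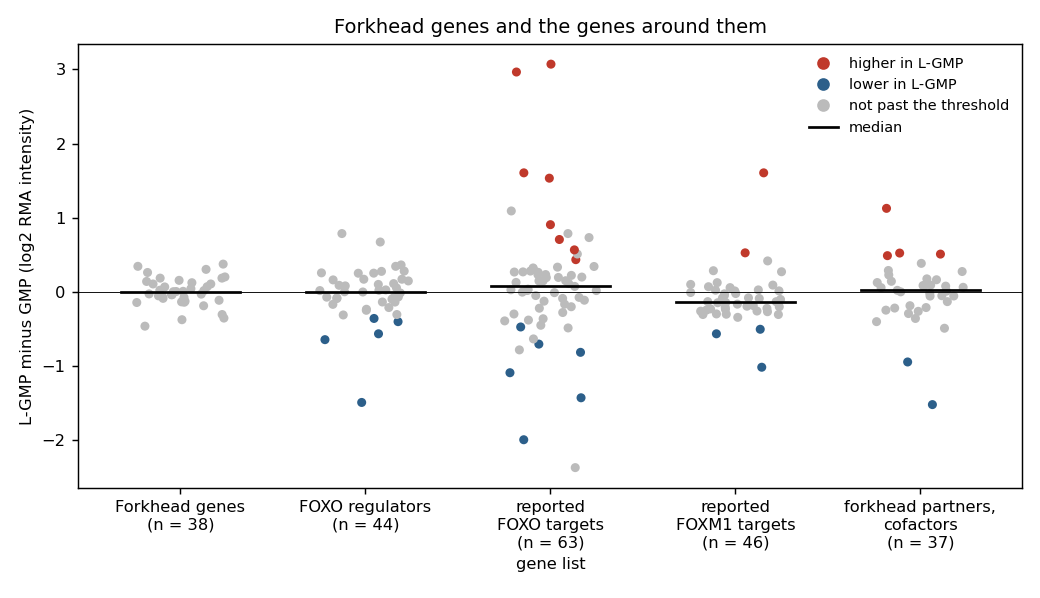
Difference in log2 RMA intensity, L-GMP minus GMP, of the Forkhead genes and of 4 lists of genes around them (points, spread sideways at random; red and blue are past an adjusted p of 0.05, black lines are medians). The 38 Forkhead genes lie between -0.46 and 0.37 with 0 called, while the 63 reported FOXO targets reach from -2.37 to 3.07 with 8 higher and 6 lower.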

How the data were processed

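The deposited table holds RMA intensities of 8 arrays on a linear scale (3.54 to 29746.73), made by the authors with RMA per the submitters' processing notes (version and genome build not given in the sources used here). Log2 was taken. The number of arrays limits the precision, and no detection call or batch was used. Of 45101 probe sets, 64 controls were left out, and 34945 had a single symbol in the platform annotation, 932 several (2 of them naming a Forkhead gene) and 9160 none. Entrez identifiers matched 34741 to RefSeq, changing 0 symbols. Each gene took its probe set with the highest mean.

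Groups came from the titles. Limma 3.58.1 (R 4.3.3; lmFit, eBayes, group alone, 2-sided) was adjusted by Benjamini-Hochberg over 18193 genes at 0.05, or over all 34945 probe sets where a sentence says so. Differences are L-GMP minus GMP, with the SE of the fit. Lists were described by counts and medians, and every Forkhead gene and up to 4 called genes per list and direction were named, with other list genes chosen after their values were seen. Members and lists were chosen with earlier results of these data known. Tested on simulated arrays of this comparison (18193 genes), the fit called 82 of 100 genes shifted by 1 log2 unit and 19 of 100 shifted by 0.5. The remaining genes were left unshifted, so fewer genes differed there than were called in the data. Alternatives were 2 scalings, 2 filters on dim genes, the mean of probe sets, each probe set, a trended robust prior, the replicate block and each array left out. Promoter sequences are those of RefSeq (GRCm38.p6), found for 25 of the 38 genes.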

Additional observations from a re-analysis of the deposited data

Results flagged for a closer look

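Single arrays stood apart in 3 of 76 sets of 4 arrays (38 members, 2 groups), their gap to the nearest array being over 0.829 of the group's range. Chance gives about 1 in 20. Foxe3 read 5.84 in L-GMP replicate C, against 5.35 to 5.39 in the other L-GMPs. Foxl1 read 4.30 in GMP replicate C, against 4.48 to 4.51 in the other GMPs. Foxp4 read 6.29 in GMP replicate B, against 6.55 to 6.60 in the other GMPs.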

How the results depend on the processing

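The Forkhead count of 0 became 2 higher after median centring (Foxm1, Foxq1), 1 lower after quantile normalization (Foxo4), 2 with each probe set on its own, and 0 to 2 over arrays left out (2 without L-GMP D). It was 0 with the dimmest genes out, the mean of probe sets, the trended prior and the replicate block. No called member reversed. The 2 Forkhead probe sets past the threshold became 7 after centring, 4 after quantile normalization, 4 without the dimmest 25%, 1 with the trended prior, 0 with the replicate block, and 0 to 6 over arrays left out. Each probe set on its own gave 11 FOXO regulators and 10 FOXM1 targets in place of 5 and 5, and 4254 in place of 2193 for all genes past the threshold. The mean of probe sets gave 3 FOXO regulators, the replicate block 3 FOXM1 targets, and centring 10 partners in place of 6. Centring also turned the share of calls that were higher from 39.7% to 70.1%. FOXO regulators were 3 higher and 2 lower after it, in place of 0 and 5, and FOXO targets 13 and 4, in place of 8 and 6. Over arrays left out, FOXO regulators ranged from 2 to 5, FOXO targets from 9 to 16, FOXM1 targets from 2 to 5, partners from 4 to 6 and all genes from 1411 to 2388. Without GMP D and L-GMP B at once, a choice made after seeing the data, there were 1 Forkhead probe set and 3 FOXM1 targets. Deviations of same-lettered arrays had correlations of -0.067 to 0.112, and those of differently lettered arrays -0.118 to 0.106. A weak pairing could give such values too, so they do not settle whether the letters pair the arrays. The replicate block gave 1760 calls in all. With it Xpo1, Ywhag, Cdc25a, Cenpf, Bbc3 and Cebpb were no longer past the threshold. With 4 arrays a group, simulated differences of 0.5 on the log2 scale were recovered in 19% of 100 genes. The simulation shifted a far smaller share of genes than the 12.1% called here, which makes its adjusted threshold stricter. Its 19% therefore does not give the recovery in these data.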
